A study of Mus musculus with 9 samples.

Results

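The genes described here are 10 that mark T cells, their killing function and the checkpoints that restrain it, in spontaneous breast adenocarcinomas of mice. They are 4 T cell markers (Cd3e, Cd4, Cd8a and Foxp3), 3 cytotoxic effectors (Gzmb, Prf1 and Ifng) and 3 checkpoint genes (Cd274, Pdcd1 and Ctla4). They were taken by symbol from a table of 49585 genes, and all 10 were in it. Their levels were followed across 9 tumours, 3 labelled AAV-Control (here C1 to C3) and 6 labelled AAV-delta-mut-p53 (here D1 to D6), numbered in the order of the series. The labels write the second as AAV-<delta>mut-p53. AAV stands for adeno-associated virus, a gene delivery vector, and it was given on days 0, 3 and 8. Its cargo is not given in the sources read here. In the D tumours it was meant to delete mutant p53, and the comparison asked how gene expression differed from tumours given the control vector. Collection followed once a mouse had to be euthanised, so the time from dosing to collection may differ between tumours. The ages of the mice are not stated.

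All mice of both groups had the same genotype labels. They carried K14-Cre, a recombinase driven by the keratin 14 promoter and so made in keratin 14-positive epithelium. Trp53 was labelled wm-R172H/fl. R172H replaces 1 amino acid in the domain through which p53 binds DNA, fl is a Cre-deletable allele, and wm is not spelled out. Cas9 was labelled Rosa26LSL CAS9-P2A-EGFP/+, an allele that is read only after Cre has acted. The titles of D4 and D5 share a number, so both may come from 1 mouse, which the labels do not say. Nothing in the labels says that the other samples came from separate animals, so the tests measure the spread between these samples. RNA was taken from whole tumour tissue, in which fewer cells of a type and less RNA per cell cannot be told apart.

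Totals ran from 18581545 to 30953250 counts per tumour, and no 2 libraries of a group were alike within sampling noise. Values are in CPM, the usual scale on which a gene's counts are set against the total of its library, here after TMM scaling. Trp53 RNA was 48.5, 39.3 and 42.3 CPM in C1 to C3 and 13.1, 21.8, 38.9, 37.8, 40.8 and 41.4 CPM in D1 to D6, so low levels were seen in D1 and D2 only. D2 stood apart in its make-up. Its 30 skeletal muscle genes summed to 50500 CPM, against 66.0 to 552 CPM in the other 8 tumours, and its 8 epithelial tumour markers summed to 257 CPM, against 1550 to 5100 CPM. Its 8 general leukocyte genes, among them Ptprc, which encodes the pan-leukocyte protein CD45, summed to 965 CPM, against 121 to 465 CPM elsewhere. Its 12 macrophage and monocyte genes summed to 4230 CPM, against 501 to 1720 CPM elsewhere. Of the other marker lists, 9 of 10 tested B and plasma cell genes, 8 of 8 neutrophil genes, 5 of 5 mast cell genes and 5 of 9 dendritic cell genes had a higher mean in D tumours. Without D2 these were 5 of 8, 8 of 8, 1 of 5 and 1 of 9. Members other than Ifng, and most lists, are therefore given with and without D2, and the part of its tissue make-up in those results was not tested.

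T cells recognise antigen through a receptor whose signal is carried by the CD3 chains. CD4 marks helper and regulatory cells, CD8 marks killer cells, and the transcription factor FOXP3 defines regulatory T cells. Killer T cells and natural killer (NK) cells release perforin, which opens the target cell membrane, and granzymes, proteases that start cell death inside it. Interferon gamma, made by the same cells, induces antigen presentation and the ligand PD-L1, which binds the receptor PD-1 on T cells and dampens them. CTLA-4 restrains T cells by competing for the B7 ligands of CD28.

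Across the series these genes were scarce. Scaled to exon length, the median level over the 9 tumours was 2.17 CPM per kilobase for Cd4 and 1.83 for Cd274. It was 0.353 for Cd8a, 0.34 for Gzmb, 0.191 for Prf1, 0.183 for Foxp3, 0.155 for Pdcd1, 0.153 for Ctla4, 0.0485 for Cd3e and 0 for Ifng. The ranges over tumours overlapped for each pair of neighbours in this order. All 9 tumours together held 97 reads of Cd3e and 11 of Ifng, and these 2 genes did not pass the filter on low counts. The other 8 members were tested. Beside each CPM in the plot of members by tumour stands a 95% exact Poisson interval, which covers counting error only.

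**Figure D1:**
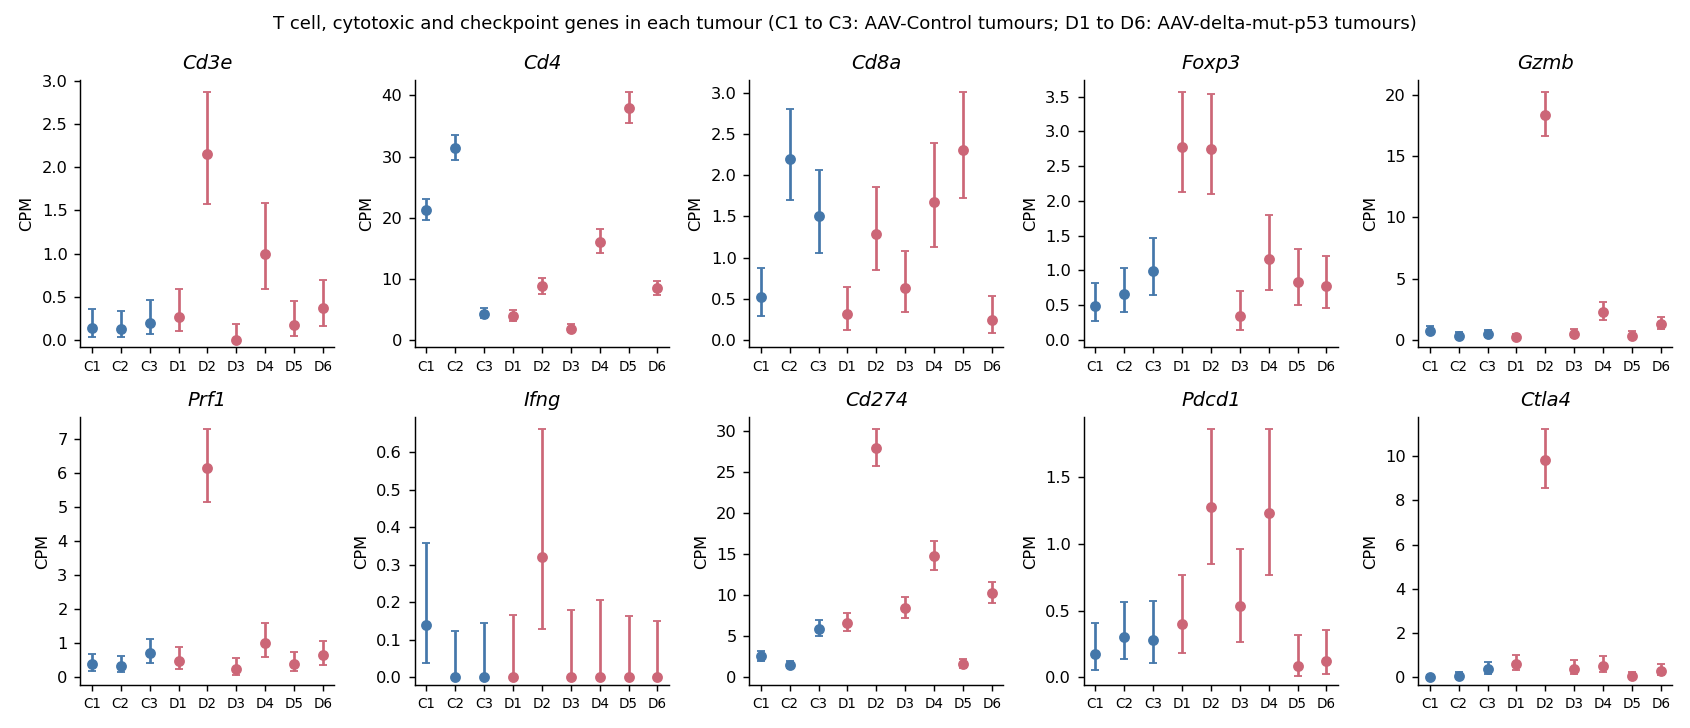
Level of each of the 10 genes in CPM (vertical axis, from 0) in the 9 tumours (horizontal axis; blue, AAV-Control; red, AAV-delta-mut-p53), with 95% exact Poisson intervals for counting error. D2 is the highest tumour for 7 of the 10 genes, while Cd4 and Cd8a are highest in D5 and Foxp3 in D1.

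No member passed the test between the groups. Among the 8 tested, 6 had a higher mean in the D tumours and 2 (Cd4 and Cd8a) a lower one. Of the 6, Pdcd1 and Ctla4 passed the filter on low counts through D tumours only. Each held at most 9 reads in any control, so a higher mean was largely built into their being tested. Over all 19606 tested genes, 55.6% had a higher mean. The members' median log2 fold change, D over C, was 1.45, beside 0.09 over all tested genes. Fitted without the filter, 8 of the 10 were higher and 2 lower, with a median of 1.43, beside 0.199 over all genes. Leaving out D2 as well, 7 were higher and 3 lower, with a median of 0.74, beside 0.0541. In edgeR's quasi-likelihood test 0 of 8 members passed a false discovery rate (FDR) of 0.05, with FDR from 0.677 to 0.907, and 0 of 8 had an unadjusted p under 0.05. Over all tested genes, 0% passed the FDR and 7.07% had such a p, 3.82% higher and 3.26% lower. With no filter on low counts, Ctla4 and Cd274 of the 10 members had an unadjusted p under 0.05, beside 6.89% of all genes. DESeq2 called 0 members as well, beside 0.53% of all genes, and gave no p-value for Gzmb, Prf1 and Ctla4. Cd274 had an unadjusted p under 0.05 in DESeq2, as did 1922 of 19606 genes. Limma voom with sample weights also called 0 members, and 0 of all genes. Ctla4 had an unadjusted p under 0.05 in voom, as did 2038 of 19606 genes. In 0 of the 10 members were the groups without overlap, as they were in 3.06% of all tested genes. Without D2, Pdcd1 and Ctla4 no longer passed the filter. The median log2 fold change was then 0.48 over the 6 members tested, 4 higher and 2 lower, where 53.3% of all genes were higher. Of those 6, edgeR then gave 0 an unadjusted p under 0.05, beside 8.79% of all genes. DESeq2 without D2 called 0 of them, beside 1.36% of all genes, with Cd274 at an unadjusted p of 0.049.

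**Figure D2:**
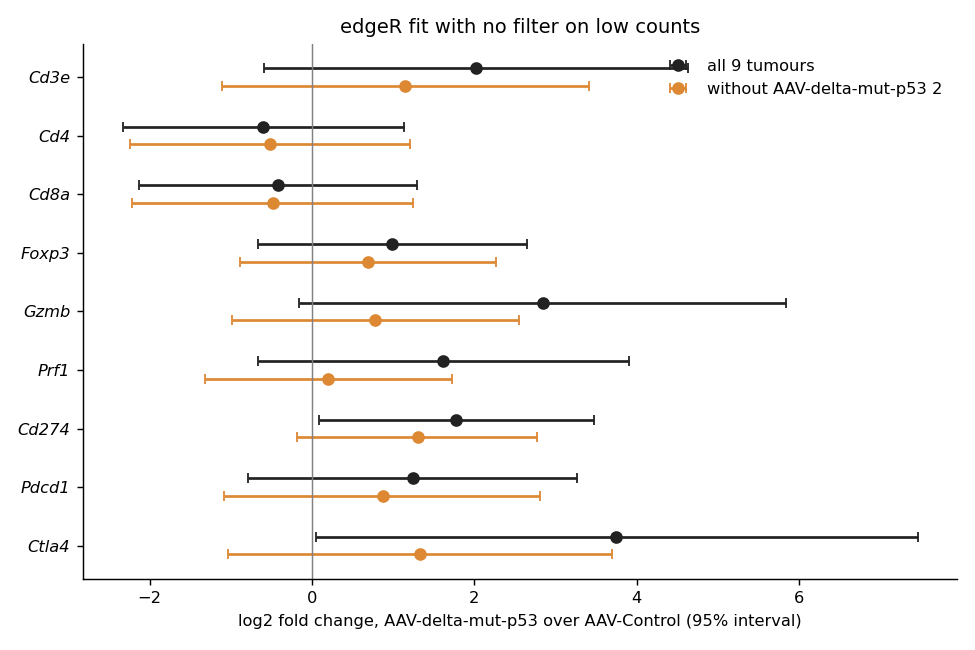
Log2 fold change, AAV-delta-mut-p53 over AAV-Control (horizontal axis), with its 95% interval from edgeR fitted with no filter on low counts, for 9 genes with all tumours (black) and without D2 (orange). Ifng, at 0 counts in 7 tumours, is left out. Without D2 the value of Gzmb goes from 2.84 to 0.78, that of Prf1 from 1.62 to 0.20 and that of Ctla4 from 3.75 to 1.33, and all 9 intervals then include 0.

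The first of the T cell markers is Cd3e (ENSMUSG00000032093.7; chromosome 9, 44998740 to 45009627 on GRCm38), which encodes the epsilon chain of CD3, present on all T cells. It gave 4, 4 and 5 reads in C1 to C3, which is 0.140, 0.133 and 0.198 CPM. In D1 to D6 it gave 6, 47, 0, 18, 4 and 9 reads, which is 0.269, 2.15, 0, 1.0, 0.177 and 0.366 CPM. D1, D2, D4 and D6 were above every control, D5 was within their range, and in D3 the count was 0, where the floor of 3 counts is 0.146 CPM. The Poisson intervals of D2 (1.58 to 2.87 CPM) and D4 (0.594 to 1.59 CPM) lay above those of the 3 controls, the highest of which ended at 0.462 CPM. Fitted without the filter, its log2 fold change was 2.02 (SE 1.21; FDR = 0.637 by edgeR), and 1.15 (SE 1.05) without D2. The gene models Gm48719 (antisense) and Gm48720 (same strand) overlap it and held at most 5 reads.

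Cd4 (ENSMUSG00000023274.14; chromosome 6, 124864692 to 124888221), the co-receptor of helper and regulatory T cells, was far more abundant than Cd3e and did not follow it. It was 21.3, 31.4 and 4.31 CPM in C1 to C3 and 3.95, 8.76, 1.85, 16.1, 38.0 and 8.49 CPM in D1 to D6. Per kilobase of exon it was above Cd3e in 9 of 9 tumours. D5 and C2, the highest for Cd4, held 4 reads of Cd3e each, beside 860 and 943 reads of Cd4. Group means were 19.0 ± 13.7 CPM (SD, n = 3) in C and 12.9 ± 13.3 CPM (SD, n = 6) in D tumours, a log2 fold change of -0.56 (95% interval -2.44 to 1.32; FDR = 0.877 by edgeR). The value was -0.47 without D2 and 0.01 without C2, so even its sign rested on 1 library.

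Cd8a (ENSMUSG00000053977.13; chromosome 6, 71373427 to 71379173), the alpha chain of the killer cell co-receptor, was 0.526, 2.20 and 1.5 CPM in C1 to C3. In D1 to D6 it was 0.314, 1.28, 0.634, 1.67, 2.30 and 0.244 CPM. The groups overlapped almost wholly, with a log2 fold change of -0.39 (95% interval -2.08 to 1.30; FDR = 0.907 by edgeR). It was 0.11 without C2 and -0.44 without D2. Its partner chain Cd8b1 was 0.210, 1.5 and 1.58 CPM in C1 to C3 and 0.354 CPM in D5. D5 thus had the highest Cd8a of the series beside a low Cd8b1, whereas D4 held 1.67 CPM of Cd8a and 2.12 CPM of Cd8b1. Cd8a was above Cd3e per kilobase in 7 of 9 tumours, and below it in D2 and D6.

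Foxp3 (ENSMUSG00000039521.12; chromosome X, 7573644 to 7595245) was highest in D1 and D2, at 2.78 and 2.75 CPM. The controls held 0.491, 0.666 and 0.989 CPM, and D3 to D6 held 0.342, 1.17, 0.840 and 0.772 CPM. D1, D2 and D4 were above every control and D3 was below, with a log2 fold change of 1.01 (95% interval -0.58 to 2.6; FDR = 0.726 by edgeR) and 0.73 without D2. The Poisson intervals of D3 and D4 overlapped those of the controls. In D1 the 62 reads of Foxp3 stood beside 6 of Cd3e, while D2 had 60 beside 47. Foxp3 shares its locus with Flicr on the same strand (0 to 44 reads) and Ppp1r3f on the opposite one (12 to 78 reads), and the sources do not say how the counting split their reads.

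The wider T cell genes were a list of 18 genes of the receptor complex and its first signalling steps. Of these, 15 were tested, 12 with a higher and 3 with a lower mean in D tumours, and 0 passed the FDR or an unadjusted p of 0.05. Their median log2 fold change was 0.89. Without D2, which was highest for 10 of the 18, 7 were higher and 7 lower, with a median of 0.16. Their summed level was 17.0 to 26.8 CPM in controls and 12.8 to 75.1 CPM in D tumours. The constant region genes of the alpha beta receptor were low but present: Trac was 0.667, 1.13 and 1.35 CPM in C1 to C3 and 2.29, 4.36, 0.634, 2.06, 0.619 and 1.67 CPM in D1 to D6. Cd40lg, a helper cell ligand, was at 0 in 6 tumours. The smallest p in the list belonged to Lat, an adaptor of receptor signalling that reached 17.9 CPM in D6 (log2 fold change 2.90, SE 1.37; FDR = 0.677 by edgeR), and to Cd27, a co-stimulatory receptor (1.0, SE 0.50; FDR = 0.677). D6 held only 0.366 CPM of Cd3e. Lck, the kinase that acts first, was the most abundant, from 4.23 to 7.80 CPM.

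Of 8 naive and memory T cell genes, 4 were higher and 4 lower (median 0.17), and 5 and 3 without D2 (median 0.06). The 1 with an unadjusted p under 0.05 was Ccr7, a lymph node homing receptor, at 0.253 ± 0.187 CPM (SD, n = 3) in C and 1.80 ± 1.92 CPM (SD, n = 6) in D tumours (FDR = 0.677 by edgeR). Lef1, a transcription factor of naive T cells that epithelium also uses, was 11.9 CPM in C3 and at most 2.98 CPM elsewhere. S1pr1, the egress receptor that endothelium also makes, was the most abundant of the list, from 19.1 to 70.6 CPM. Of 6 immature thymocyte genes, Rag1, Rag2, Ptcra and Dntt held 4, 11, 5 and 7 reads in all 9 tumours together. Cd1d1 and Themis, the other members, were tested and both had a higher mean, without passing (median 0.62).

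Of 9 regulatory T cell genes beside Foxp3, 8 were tested, with 6 higher and 2 lower (median 0.62, and 0.30 without D2). Capg, an actin-capping protein that macrophages and epithelium also make, was the 1 with an unadjusted p under 0.05. Its means were 40.9 ± 20.3 CPM (SD, n = 3) in C and 125 ± 67.5 CPM (SD, n = 6) in D tumours. The groups did not overlap, as in the same direction for 1.46% of all tested genes, yet it did not pass (log2 fold change 1.61, SE 0.53; FDR = 0.677 by edgeR). Il2ra, the high-affinity interleukin 2 receptor chain, was 0.246, 0.933 and 0.237 CPM in C1 to C3. It reached 6.33 CPM in D2, 2.51 CPM in D4 and 1.54 CPM in D6. Ccr8, a receptor of tumour regulatory T cells, held 5 reads over all 9 tumours.

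The cytotoxic effectors were low in every tumour but D2. Gzmb (ENSMUSG00000015437.4; chromosome 14, 56258838 to 56262260), the granule protease granzyme B, was 0.737, 0.366 and 0.475 CPM in C1 to C3. In D1 to D6 it was 0.224, 18.3, 0.488, 2.28, 0.354 and 1.30 CPM. D2 was 8.03 times the next tumour, D4, and D4 and D6 were also above every control, while D1 and D5 were below. The Poisson intervals of D1, D5 and D6 overlapped with control intervals. The log2 fold change was 2.86 (SE 1.47; 95% interval -0.40 to 6.12; FDR = 0.677 by edgeR) and 0.82 (SE 0.79; FDR = 0.775) without D2.

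Prf1 (ENSMUSG00000037202.5; chromosome 10, 61297833 to 61304680), which encodes perforin, showed the same single high tumour. It was 0.386, 0.333 and 0.712 CPM in C1 to C3 and 0.494, 6.14, 0.244, 1.0, 0.398 and 0.650 CPM in D1 to D6. D2 was 6.13 times the next tumour, D4. The log2 fold change was 1.64 (95% interval -0.73 to 4.01; FDR = 0.706 by edgeR) with all tumours and 0.24 (95% interval -1.09 to 1.56) without D2. DESeq2 gave no p-value for Gzmb, Prf1 or Ctla4. Ifng (ENSMUSG00000055170.3; chromosome 10, 118441046 to 118445892), which encodes interferon gamma, was detected only in C1, with 4 reads, and D2, with 7. In the other 7 tumours its count was 0, where the floor of 3 counts is 0.0999 to 0.167 CPM and the exact 95% Poisson upper limit is 0.123 to 0.206 CPM.

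The promoters of the 3 members in which D2 stood furthest above the next tumour are shown as the 250 bases before the RefSeq start (GRCm38.p6), with 6 short motifs of lymphocyte and interferon regulators searched on both strands. These were GGAAA (NFAT core), TGTGGT (RUNX core), TGANTCA (AP-1), AGGTGTGA (T-box), GAAA followed after any 2 bases by GAAA (interferon-stimulated response element core) and TTCNNNGAA (gamma-activated site). Capitals mark the matches, and no matches overlap in these sequences.
Gzmb (chr14:56262335-56262584, minus strand): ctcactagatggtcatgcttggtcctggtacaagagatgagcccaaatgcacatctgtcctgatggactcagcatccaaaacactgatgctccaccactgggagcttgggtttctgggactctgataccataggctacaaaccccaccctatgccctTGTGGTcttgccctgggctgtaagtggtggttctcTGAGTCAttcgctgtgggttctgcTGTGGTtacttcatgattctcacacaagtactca
Prf1 (chr10:61297586-61297835, plus strand): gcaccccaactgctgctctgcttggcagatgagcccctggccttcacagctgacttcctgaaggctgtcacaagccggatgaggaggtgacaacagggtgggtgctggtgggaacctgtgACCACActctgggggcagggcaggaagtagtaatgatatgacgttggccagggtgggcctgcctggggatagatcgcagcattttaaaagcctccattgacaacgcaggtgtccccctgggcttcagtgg
Ctla4 (chr1:60908775-60909024, plus strand): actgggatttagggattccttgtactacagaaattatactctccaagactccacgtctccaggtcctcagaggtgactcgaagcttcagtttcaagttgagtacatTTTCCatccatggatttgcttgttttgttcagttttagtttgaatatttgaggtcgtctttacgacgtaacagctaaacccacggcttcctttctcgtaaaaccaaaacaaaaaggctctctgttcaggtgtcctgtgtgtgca
Gzmb holds the RUNX core at 93 and 34 bases before the start and AP-1 at 58, Prf1 holds the RUNX core at 130 on the reverse strand, and Ctla4 holds the NFAT core at 144 on the reverse strand. Of 32851 RefSeq promoters of this length, 14.0% hold the RUNX core, 6.75% AP-1 and 55.6% the NFAT core. The matches are letters in a window, not measured sites.

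The list of 16 other cytotoxic granule and NK genes placed D2 highest for 13 of its members, where D2 was highest for 19.7% of all tested genes. Of 13 tested, 12 were higher and 1 lower in D tumours (median log2 fold change 0.88). Without D2, 10 were tested, 5 higher and 5 lower (median -0.16). The 1 with an unadjusted p under 0.05 was Gzmc, a granzyme of activated killer cells, with 0.0959 ± 0.0725 CPM (SD, n = 3) in C and 0.786 ± 0.685 CPM (SD, n = 6) in D tumours (FDR = 0.677 by edgeR). Gzmm, a granzyme of innate lymphocytes, had the next smallest p (log2 fold change 1.23, SE 0.67; FDR = 0.678). Srgn, the granule proteoglycan that most leukocytes make, was the most abundant at 13.4 to 254 CPM and made up most of the summed level.

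Chosen after their values were seen, several genes of this list set D2 apart from D4, the tumour next to it in Cd3e. Gzma, granzyme A, was 31.7 CPM in D2 and 0.0557 CPM in D4, with at most 1.19 CPM elsewhere. Ncr1, the NK cell receptor NKp46, was 9.63 CPM in D2, 0.279 CPM in D4 and at most 0.631 CPM elsewhere. Klrk1, which encodes NKG2D, was 17.3 CPM in D2 and 1.56 CPM in D4. Other genes of the list differed less between the 2 tumours. Eomes was 2.29 CPM in D2 and 1.5 CPM in D4, and Gzmm was 1.24 and 1.28 CPM. Tbx21 was 1.01 and 0.836 CPM, below its 1.3 CPM in C2. Of the CD3 chains, Cd3g was 2.89 CPM in D2 and 3.62 CPM in D4, and Cd3d was 0.688 and 1.39 CPM. Cd3e and Cd247, the zeta chain, were higher in D2, at 2.15 against 1.0 CPM and 1.97 against 1.67 CPM. The adhesion receptor gene Cd2, shared by T and NK cells, was 30.4 CPM in D2 against 2.28 CPM in D4. Each of these is a value of 1 tumour, with no test.

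Trdc, the constant region of the delta chain of the gamma delta T cell receptor, was also high in a single tumour. It was 132 CPM in D2, 1.45 CPM in D4 and 0 to 0.494 CPM in the other 7 tumours (log2 fold change 7.36, SE 3.07, unadjusted p = 0.036, FDR = 0.677 by edgeR). Without D2 it did not pass the filter, and with no filter its log2 fold change was then 1.84 (SE 1.15; FDR = 0.659 by edgeR). D2 also held 4.36 CPM of Trac. Of the 6 gamma delta genes listed, 4 were in the table under the listed symbols and 3 were tested, all with a higher mean (median 2.54). Trdc and Cd163l1 passed the filter through D tumours only, with at most 6 and 4 reads in any control. For them a higher mean was thus largely built into being tested. Sox13 alone was tested without D2 (1.86, SE 0.63; FDR = 0.523 by edgeR). Sox13, a gamma delta lineage factor that other tissues also make, was highest in D1 at 109 CPM and 10.5 CPM in D2, and Il17a held 1 read in all. D2, highest in Trdc, was thus within the control range of Sox13 (10.2 to 20.3 CPM).

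**Figure D3:**
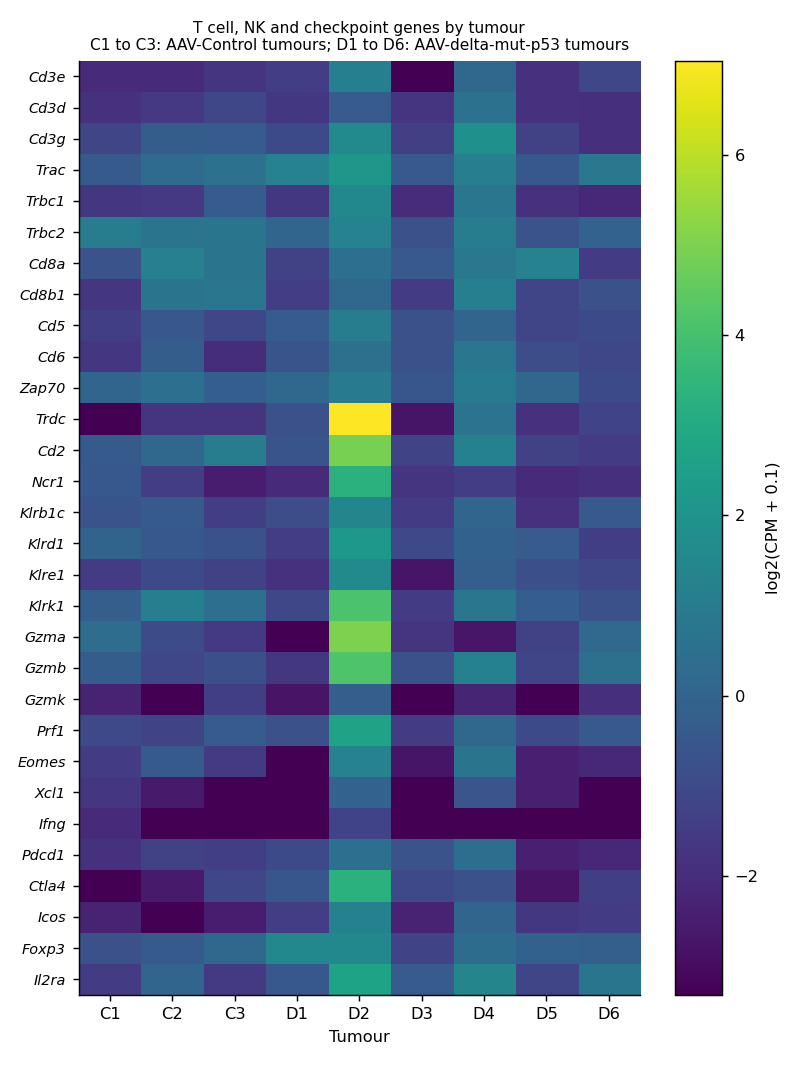
Levels of 30 T cell, NK cell and checkpoint genes (rows) in the 9 tumours (columns), as log2(CPM + 0.1) on the colour scale. D2 is brightest for Trdc, Cd2, Ncr1, Klrk1, Gzma, Gzmb, Prf1 and Ctla4, whereas D4 exceeds it for Cd3d, Cd3g, Cd6, Cd8a and Cd8b1.

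Among the checkpoint genes, Cd274 (ENSMUSG00000016496.7; chromosome 19, 29367455 to 29388095), which encodes the ligand PD-L1, had the smallest p of the members. It was 2.6, 1.53 and 5.89 CPM in C1 to C3 and 6.64, 27.9, 8.39, 14.7, 1.59 and 10.3 CPM in D1 to D6. All D tumours but D5 were above every control. Means were 3.34 ± 2.27 CPM (SD, n = 3) in C and 11.6 ± 9.07 CPM (SD, n = 6) in D tumours, and 8.32 ± 4.82 CPM (SD, n = 5) in D tumours without D2. The log2 fold change was 1.80 (SE 0.81; 95% interval -0.0016 to 3.60; unadjusted p = 0.0502; FDR = 0.677 by edgeR). It was 1.33 (unadjusted p = 0.0897; FDR = 0.608) without D2, and DESeq2 gave 1.82 (unadjusted p = 0.0159; FDR = 0.325). Over the tumours left out in turn it ran from that 1.33 to 2.48 without C3 (unadjusted p = 0.0324; FDR = 0.852 by edgeR).

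PD-L1 can be made by tumour cells and by leukocytes, and its gene answers to interferon, so Cd274 is given beside those levels. D2, D3, D4 and D6 held a summed 1460, 2050, 2230 and 1750 CPM of 20 interferon-stimulated genes, and the other 5 tumours held 254 to 461 CPM. Those 4 tumours were also the 4 highest in Cd274. D1, with 254 CPM of the interferon genes, held 6.64 CPM of Cd274, and C3, with 322 CPM, held 5.89 CPM. All 20 interferon genes had a higher mean in D tumours (median 2.31), 13 of them with an unadjusted p under 0.05, beside 3.82% of all tested genes in that direction. Without D2 all 20 were again higher (median 2.33). The part of interferon signalling or of leukocyte content in the Cd274 difference was not tested. D5, low in Cd274, was also the lowest tumour in general leukocyte genes, at 121 CPM.

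**Figure D4:**
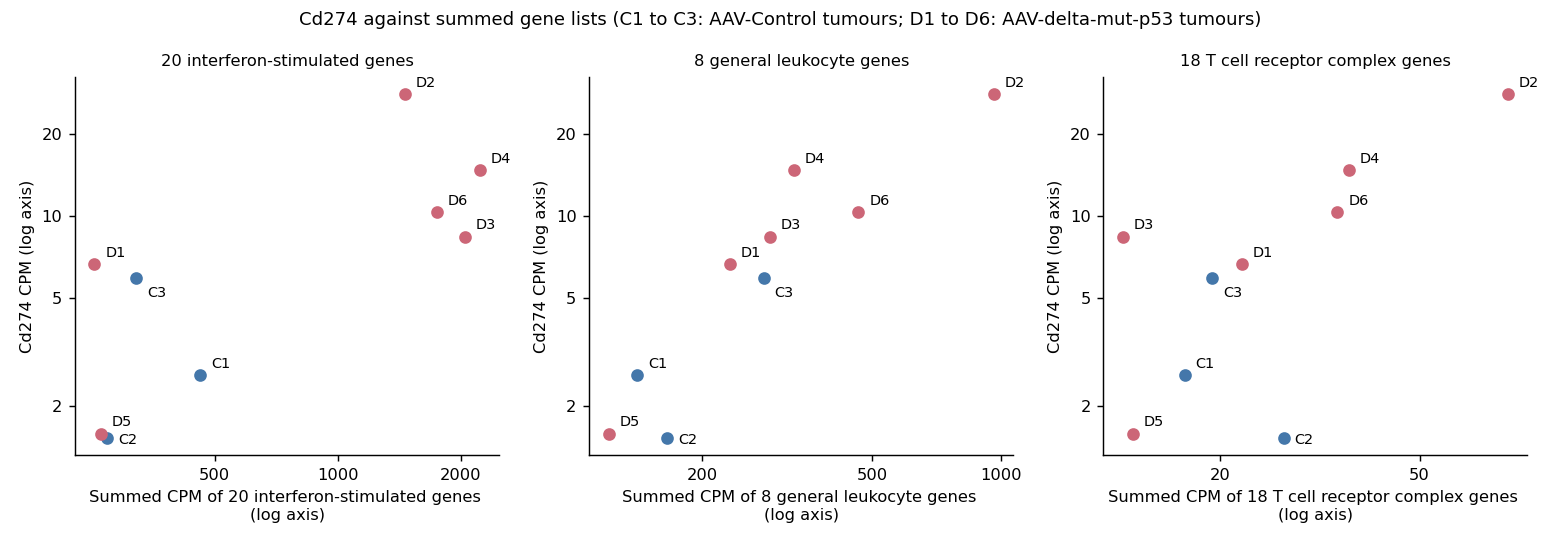
Cd274 in CPM (vertical log axis) against the summed CPM of 20 interferon-stimulated genes, 8 general leukocyte genes and 18 T cell receptor complex genes (horizontal log axes), 1 point per tumour (blue, AAV-Control; red, AAV-delta-mut-p53). D2, D3, D4 and D6 lie apart on the interferon axis with Cd274 between 8.39 and 27.9 CPM, and D3 has the lowest T cell receptor sum at 12.8 CPM.

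Interferon gamma signals through its receptor and the JAK kinases. Of 15 genes of this pathway and of T cell chemokines, 13 were tested, 12 higher and 1 lower (median 0.62), and 10 higher and 3 lower without D2 (median 0.48). Cxcl10, a chemokine that draws CXCR3-bearing T cells, had the smallest p of the list. It was 2.03, 1.97 and 1.78 CPM in C1 to C3 and 3.64, 6.24, 11.1, 12.4, 2.03 and 15.8 CPM in D1 to D6 (log2 fold change 2.14, SE 0.69; FDR = 0.677 by edgeR). Its receptor gene Cxcr3 was 0.406 CPM in D6, where Cxcl10 was highest, and 2.57 CPM in D2. The kinase gene Jak1, the most abundant, had a log2 fold change of 0.07 (SE 0.38). Ifng itself was at 0 counts in D3, D4 and D6.

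The promoter of Cd274 is shown because its level was high in the interferon-high tumours (250 bases before the RefSeq start, GRCm38.p6, same motifs).
Cd274 (chr19:29367188-29367437, plus strand): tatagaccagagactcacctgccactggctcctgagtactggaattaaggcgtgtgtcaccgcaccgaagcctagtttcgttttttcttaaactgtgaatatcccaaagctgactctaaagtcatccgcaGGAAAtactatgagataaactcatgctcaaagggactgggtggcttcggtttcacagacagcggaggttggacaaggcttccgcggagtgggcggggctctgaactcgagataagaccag
The NFAT core at 120 bases before the start was its 1 match. The interferon-stimulated response element core occurs in 2.98% and the gamma-activated site in 7.02% of all promoters of this length. Neither set of letters is in this window, which covers only a short stretch of the gene's upstream sequence.

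Pdcd1 (ENSMUSG00000026285.7; chromosome 1, 94038305 to 94052553), which encodes the receptor PD-1, was 0.175, 0.300 and 0.277 CPM in C1 to C3. In D1 to D6 it was 0.404, 1.28, 0.537, 1.23, 0.0884 and 0.122 CPM. D1 to D4 were above and D5 and D6 below every control (log2 fold change 1.26, 95% interval -0.68 to 3.20; FDR = 0.719 by edgeR). D5 and D6 held only 2 and 3 reads. Their Poisson intervals (0.0107 to 0.319 and 0.0251 to 0.356 CPM) overlapped those of the controls, as did those of D1 and D3. Only the intervals of D2 and D4 lay above all control intervals. D2 and D4 were level, with 28 and 22 reads. Pdcd1 did not pass the filter without D2, nor without D3 or D4. With no filter and without D2 its log2 fold change was 0.87 (SE 0.91, FDR = 0.72 by edgeR). D3 gave 11 reads of Pdcd1 beside 0 of Cd3e.

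Ctla4 (ENSMUSG00000026011.13; chromosome 1, 60887000 to 60915832) differed most between D2 and the rest. It was 0, 0.0666 and 0.356 CPM in C1 to C3 and 0.584, 9.81, 0.390, 0.502, 0.0442 and 0.284 CPM in D1 to D6. D2, with 214 reads, was 16.8 times the next tumour, D1, with 13. The log2 fold change was 3.77 (95% interval -0.24 to 7.77; FDR = 0.677 by edgeR). It was 5.63 without C3 (95% interval 0.04 to 11.23; FDR = 0.852 by edgeR), where the controls left held 0 and 2 reads. Ctla4 did not pass the filter without D2, nor without D1 or D4. With no filter and without D2 its log2 fold change was 1.33 (SE 1.10; FDR = 0.684). Of its neighbours in the family, Cd28 was 7.61 CPM in D2 but 9.46 CPM in C2, and Icos was 2.25 CPM in D2, 0.947 CPM in D4 and at most 0.269 CPM elsewhere. The pseudogene Rpl18-ps1 overlaps the gene model of Ctla4 and held 2 to 13 reads in every tumour.

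Of 19 other inhibitory receptors and ligands, 17 were tested, 14 higher and 3 lower (median 0.77; 12 and 5 without D2, median 0.37), and edgeR's test put 0 of them past the FDR or an unadjusted p of 0.05. Their summed level was 241 to 316 CPM in controls and 144 to 697 CPM in D tumours, highest in D6. Tox, a transcription factor of exhausted T cells, had the smallest p and was lower: 6.49, 5.40 and 7.44 CPM in C1 to C3 and 0.763, 1.79, 0.293, 1.67, 5.70 and 0.244 CPM in D1 to D6 (log2 fold change -1.88, SE 0.85; FDR = 0.677 by edgeR). Among the D tumours D5 alone lay within the control range of Tox. Cd3e was only 0.133 to 0.198 CPM in the controls, and which cells made the Tox RNA was not tested. Lgals9, which encodes the ligand galectin 9, averaged 32.1 ± 9.32 CPM (SD, n = 3) in C and 88.9 ± 58.9 CPM (SD, n = 6) in D tumours (log2 fold change 1.47, SE 0.70; FDR = 0.677). Pdcd1lg2, the other PD-1 ligand, was 2.89 CPM in D2 and 0 to 0.223 CPM elsewhere. Havcr2, which encodes TIM-3 and is also made by macrophages, was 3.99 CPM in D2 and highest in D6 at 16.0 CPM, so it did not share the D2 peak.

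Ratios between genes of 1 tumour do not depend on library size, and 6 were compared as log2 ratios of counts with 0.5 added. The exact 2-sided permutation test over 84 assignments, whose smallest p is 0.0119, found no difference past the threshold, with adjusted p = 0.929 for each of the 6. Cd3e over Ptprc was -8.22 ± 0.39 (SD, n = 3) in C and -8.09 ± 1.88 (SD, n = 6) in D tumours. It was highest in D4 at -6.22 and lowest in D3 at -11.7, while D2 was at -7.62. The 47 Cd3e reads of D2 thus came with 429 CPM of Ptprc, and its Cd3e per Ptprc was close to that of C1 at -7.83.

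Cd8a over Foxp3, a usual index of killer against regulatory cells, was 0.10, 1.70 and 0.59 in C1 to C3. In D1 to D6 it was -3.06, -1.09, 0.85, 0.50, 1.43 and -1.58 (difference -1.29, exact permutation p = 0.274). D1, D2 and D6 were below every control, and the other D tumours were within their range. Foxp3 over Cd3e ran from 0.22 in D4 to 3.91 in D3, and 1.69 to 2.21 in controls. Gzmb over Cd3e was 3.08 in D2, 1.17 in D4 and 1.18 to 2.26 in controls. Pdcd1 over Cd3e was -0.74 in D2 and 0.28 in D4, beside 0.29 to 1.08 in controls. The values of D3 in the ratios to Cd3e rest on its count of 0. Cd8a over Cd4 spanned -5.29 to -1.51 in controls and -5.01 to -1.51 in D tumours.

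**Figure D5:**
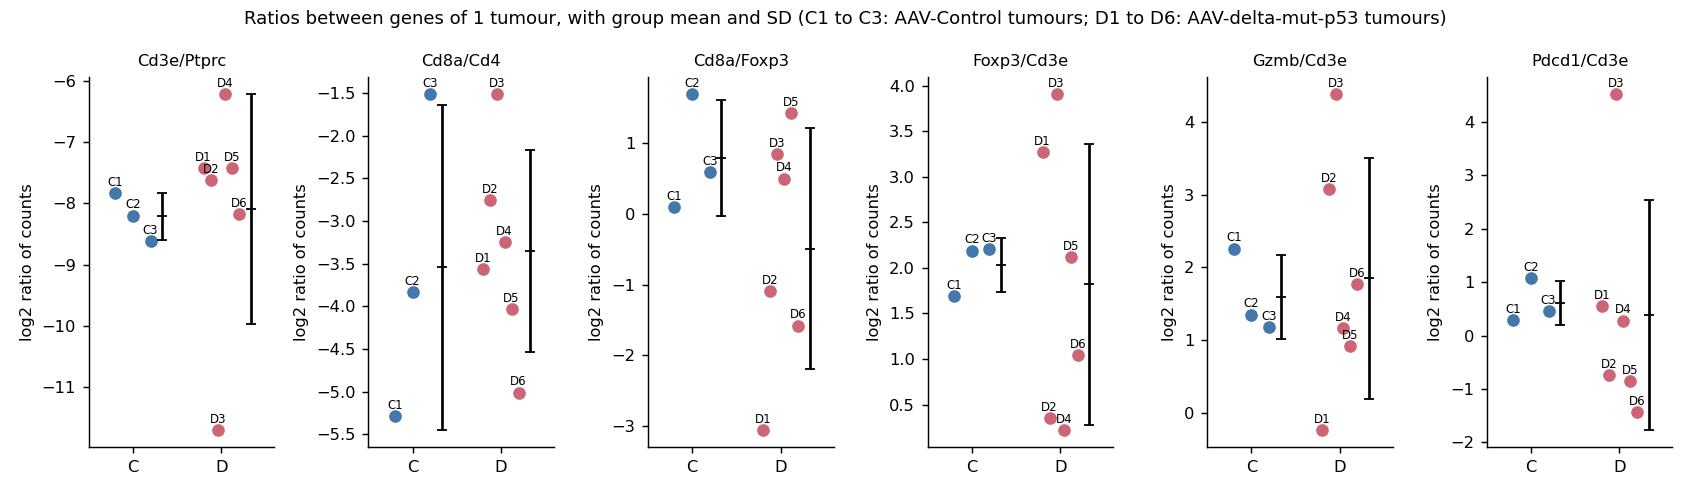
Log2 ratios of counts between 2 genes of 1 tumour (vertical axes), with 1 point per tumour and the mean and SD of each group, for AAV-Control (C) and AAV-delta-mut-p53 (D). The groups overlap in each of the 6 ratios, and D3, with 0 counts of Cd3e, is the highest or lowest point in the 4 that hold Cd3e.

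Rank order over the 9 tumours is given as a description, and many of the ranks lie within counting error. Cd3e held 4, 4, 5 and 4 reads in C1, C2, C3 and D5. Outside D2 and D4, Pdcd1 held 2 to 11 reads, and outside D2, Ctla4 held 0 to 13. Cd3e ranked most like Prf1 (Spearman rho = 0.95) and Foxp3 (0.80), and Pdcd1 ranked like Ctla4 (0.833). Cd3e had rho = -0.05 with Cd4 and -0.167 with Cd8a, while Cd4 and Cd8a had 0.633 with each other. Searched over 13894 genes, the 5 most like Cd3e were Prf1, Nacad, Sdccag8, Igsf9b (each rho = 0.95) and Plagl1 (0.933). Those most like Cd274 were Il2rg and Itgal (0.983), Cd244a, Nfkbid and Rbks (0.967). Leukocyte genes among them include Il2rg, the common cytokine receptor chain, Itgal, an integrin chain, and Cd244a, from the list of other inhibitory receptors. The same search run for Cd4 after its values had been seen gave Col13a1, a collagen gene with the same rank order in all 9 tumours (rho = 1.0), then Pde11a, Emilin3, Fbn2 and Flywch1, none of them a T cell marker. For Cd8a it gave Thrsp, Selenos, Pip4p2, Cry1 and Nkain3 (0.917 to 0.933). These lists are the highest of many comparisons and carry no test.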

How the data were processed

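The authors deposited raw read counts per gene, 1 column per tumour, with Ensembl identifiers. Per the submitters' processing notes, STAR 2.6.0b, DESeq2 and the build GRCm38 were used, with no role given. Libraries were strand-specific and made from total RNA, per the labels' protocols. The sources used here do not name the counting program, its strand setting or the annotation release. Symbols were found for 49326 of 49585 identifiers, and positions and exon lengths were taken from GENCODE mouse release 21.

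Counts were filtered with filterByExpr (minimum count 10), scaled by TMM and tested with edgeR 4.0.16 in R 4.3.3 (2-sided quasi-likelihood test, all 9 tumours, no covariate), with Benjamini-Hochberg adjustment over 19606 genes. Intervals are 95%. DESeq2 1.42.0, limma 3.58.1, other scalings and filters, the sum of D4 and D5, and each tumour left out were alternatives.

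The members and lists were chosen with earlier results of these data known. Named were the members and, of each list, the 2 genes with the smallest p and the most abundant one, plus 5 genes ranked most like Cd3e and Cd274 (mean of at least 1 CPM). Other named genes were chosen after their values were seen, and some that the rule takes are not printed.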

Additional observations from a re-analysis of the deposited data

Results flagged for a closer look

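Within the 6 AAV-delta-mut-p53 tumours, D2 lay further from the others than Dixon's 95% limit allows for 4 genes, at 18.3 CPM of Gzmb, 6.14 CPM of Prf1, 0.321 CPM of Ifng and 9.81 CPM of Ctla4. The value of Ifng is 7 reads beside 0 in each of the other 5 tumours, where a single read would also have passed the limit. D3 lay beyond the same limit for 2 ratios, at -11.7 for the log2 ratio of Cd3e to Ptprc and 4.52 for that of Pdcd1 to Cd3e, both of which rest on its 0 reads of Cd3e. In all, 16 sets of values were examined, and chance passes this limit in about 1 of 20 sets. The muscle, epithelial and leukocyte levels of D2 are given above, and their part in its values was not tested.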

How the results depend on the processing

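In each of 21 alternatives 0 members passed the FDR, and in each of 12 alternatives 0 ratios passed. Over all tested genes, 104 of 19606 passed the FDR in DESeq2 and 261 of 19200 in DESeq2 without D2. In every other of the 21 alternatives 0 of all tested genes passed, so the 0 there is not particular to the members. The number of members tested ranged from 5 under the stricter filter to 10 with none. Of 228 single values under an alternative, 206 kept their direction and their side of the threshold, 3 (Gzmb, Prf1 and Ctla4 in DESeq2) kept their direction with no p-value, and 19 changed sign. With 0.1 added to the counts the ratio differences were -0.19 for Cd3e over Ptprc, 0.10 for Foxp3 over Cd3e and 0.09 for Pdcd1 over Cd3e, and with D4 and D5 summed the first was -0.08. Leaving out 1 tumour at a time gave ranges of -1.27 to 0.01 for Cd4, -0.79 to 0.11 for Cd8a, -0.25 to 0.85 for Cd3e over Ptprc, -0.68 to 1.21 for Cd8a over Cd4, -0.63 to 0.11 for Foxp3 over Cd3e, -0.26 to 0.67 for Gzmb over Cd3e and -1.04 to 0.15 for Pdcd1 over Cd3e, and the cause of these changes was not tested. Limma voom with sample weights gave 0.44 for Gzmb and 0.54 for Prf1, near the values without D2, but 3.13 for Ctla4, near the value with D2. DESeq2 without D2 and the fit with no filter and without D2 were added after the data had been seen. No paired analysis was possible because the replicate numbers only name the samples. Reads of most members were few, 0 to 47 per tumour for Cd3e, so differences within their Poisson intervals were not detectable at this depth. Cd4 and Cd274 held more, 38 to 943 and 36 to 608 reads per tumour, and their tumours differed beyond counting error.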
